A study of Mus musculus with 6 samples.

Results

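The mitochondrial respiratory chain genes were taken by name: every gene on the array whose symbol begins with Nduf, Sdha, Sdhb, Sdhc, Sdhd, Uqcr or Atp5, or with Cox and a digit. This gave 99 genes with 149 probes, out of 23343 named genes on the array. Of these, 94 passed the brightness filter, which keeps a gene if both arrays of any genotype read some probe of it as well above background, among 13839 genes that passed it. The 94 were 36 subunits of complex I, 4 of complex II, 8 of complex III, 11 common subunits and 5 tissue-restricted isoforms of complex IV, 15 subunits of complex V, 12 assembly factors and 3 others. The 3 others were the supercomplex factor Cox7a2l, Atp5sl, which RefSeq lists as Dmac2, and Cox4nb. The last is a subunit of an endoplasmic reticulum membrane complex (Emc8 in RefSeq) that the prefix brings in by its older name. Cox7b2, Cox8b, Cox8c, Cox10 and Atp5s did not pass the filter. Because the filter admits a gene that is bright in 1 genotype alone, counts over the 94 do not stand for all 99.

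Total RNA of whole newborn pancreas (C57BL/6N mice, postnatal day 0.5) was measured on 6 single-colour arrays with 2 per genotype. Spink3+/+ is wild type. Spink3-/- lacks Spink3, a trypsin inhibitor of the acinar cell, on both alleles, and its acinar cells are described in the design as dying without apoptosis and with autophagy. Spink3-/-XKI/+ lacks Spink3 in the same way and carries 1 copy of an allele called XKI, whose nature the labels do not give; part of its acinar cells are described as normal. The labels do not say whether arrays of a genotype came from separate animals or from pools, so each p-value measures sample-to-sample spread only, and that spread may be technical. In a whole organ, fewer cells of a type and less RNA per cell cannot be told apart.

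The respiratory chain passes electrons from NADH through complex I, and from succinate through complex II, to ubiquinone, then through complex III, cytochrome c and complex IV to oxygen. Complexes I, III and IV pump protons across the inner membrane, and complex V, the ATP synthase, uses their return to make ATP. Complexes I, III, IV and V combine subunits from nuclear genes with subunits from mitochondrial DNA, while complex II is wholly nuclear. Around the catalytic core sit small accessory subunits that stabilise and assemble the complexes. Acinar cells make large amounts of secretory protein and depend on mitochondrial ATP for it.

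The targeted gene was low where its label says so: Spink3 stood at 9.84 and 10.26 on the Spink3+/+ arrays, 3.25 and 2.95 in Spink3-/-, and 2.64 and 2.34 in Spink3-/-XKI/+. These and all later levels are log2 of the processed signal minus the array's 75th percentile. Each array held 55681 probes, 42.4% to 50.8% of the spots were well above background and none was saturated. Acinar markers were present in every sample, with 19 of 20 listed genes tested at median levels from 9.51 to 10.15. Arrays lay in 2 rows of 1 slide: row 1 held both Spink3+/+ arrays with Spink3-/- replicate 1, and row 2 held both Spink3-/-XKI/+ arrays with Spink3-/- replicate 2. Spink3+/+ and Spink3-/-XKI/+ therefore share no row. Over the tested genes, array correlations ran from 0.970 to 0.984 and did not group the arrays by genotype alone.

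No respiratory chain gene passed the test in any comparison. By limma with Benjamini-Hochberg adjustment over all 13839 genes, 0 of 94 were called in Spink3-/- against Spink3+/+, where 0.0361% of all genes were called. In Spink3-/-XKI/+ against Spink3+/+ 0 of 94 were called against 0.00723% of all genes, and in Spink3-/- against Spink3-/-XKI/+ 0 of 94 against 0.00723%. The smallest adjusted p among the 94 was 0.966, 0.581 and 0.562 in that order. At an unadjusted p under 0.05 by limma there were 3 higher and 0 lower, 1 higher and 0 lower, and 1 higher and 1 lower. Over all 13839 genes these counts were 367 and 321, 700 and 356, and 340 and 670. The chain's shares were thus near or under those of all genes. In the comparisons with Spink3-/-XKI/+ the chain's counts and smallest adjusted p came from Cox17 and Cox6a2 alone. Both are dim and passed the filter only through the genotype where they were highest. The standard error of a difference was between 0.15 and 0.33, with a median of 0.18, while 86, 85 and 90 of the 94 differences were smaller than 0.3. These misses do not show that the genotypes have equal levels. What follows describes sizes, directions and overlap of arrays, and the 3 comparisons share arrays with one another.

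In Spink3-/- the chain stood slightly above Spink3+/+. Of the 94 genes 71 were higher and 23 lower, with a median log2 difference of 0.11 where the median of all genes was -0.01. Both Spink3-/- arrays lay above both Spink3+/+ arrays for 40 of the 94 and below them for 5, where all genes gave 16.0% and 16.7%. The SD between arrays of a genotype of the chain's own median was 0.06. In the same comparison 13 of 13 tested liver genes were higher (14 listed, median 1.73), 15 of 19 acinar markers were lower (median -0.14) and 5 of 5 erythroid genes were lower (median -0.58). On single arrays, the liver genes' median about their own means was -0.84 and -0.27 in Spink3+/+, 1.37 and 0.75 in Spink3-/-, and -1.25 and 0.20 in Spink3-/-XKI/+. Their part in the chain's difference was not tested. Without Spink3+/+ replicate 1 the chain's median was 0.05, and without Spink3+/+ replicate 2 it was 0.18. Scaling on spike-in controls moved the median of all genes to 0.11 and that of the chain to 0.22, with 85 higher and 9 lower. Both scalings subtract 1 value per array from every gene, so the gap between the medians could not change.

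The difference lay in the accessory subunits more than in the core. Here the core was 21 nuclear subunits: the 7 conserved ones of complex I, all 4 of complex II, Uqcrc1, Uqcrc2 and Uqcrfs1 of complex III, and Atp5a1, Atp5b, Atp5c1 and Atp5d of the catalytic part of complex V. The catalytic core of complex IV is made from mitochondrial DNA, so its large nuclear subunits Cox4i1, Cox5a and Cox5b were put with the core by convention. The split of complex V is a convention too. Its rotor subunits Atp5e, Atp5g1, Atp5g2 and Atp5g3 were counted as accessory, and Atp5e had the highest accessory difference in Spink3-/- (0.48). Of the 53 other common subunits 48 were higher in Spink3-/-, with a median of 0.19 and 32 without overlap between genotypes. Of the 21 core subunits 12 were higher, with a median of 0.01 and 4 without overlap. The share of all genes that lay higher without overlap was 16.0%, so the core's count was near that background. Leaving out Spink3+/+ replicate 1 brought the accessory median to 0.13, with 41 of 53 higher, and the core median to -0.04, while leaving out Spink3+/+ replicate 2 gave 0.24 and 0.10. Over 13 other settings on all arrays the accessory median ran from 0.12 to 0.31 and the core median from -0.05 to 0.12, the upper ends from spike-in scaling. No test of the difference between these lists was made.

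**Figure D1:**
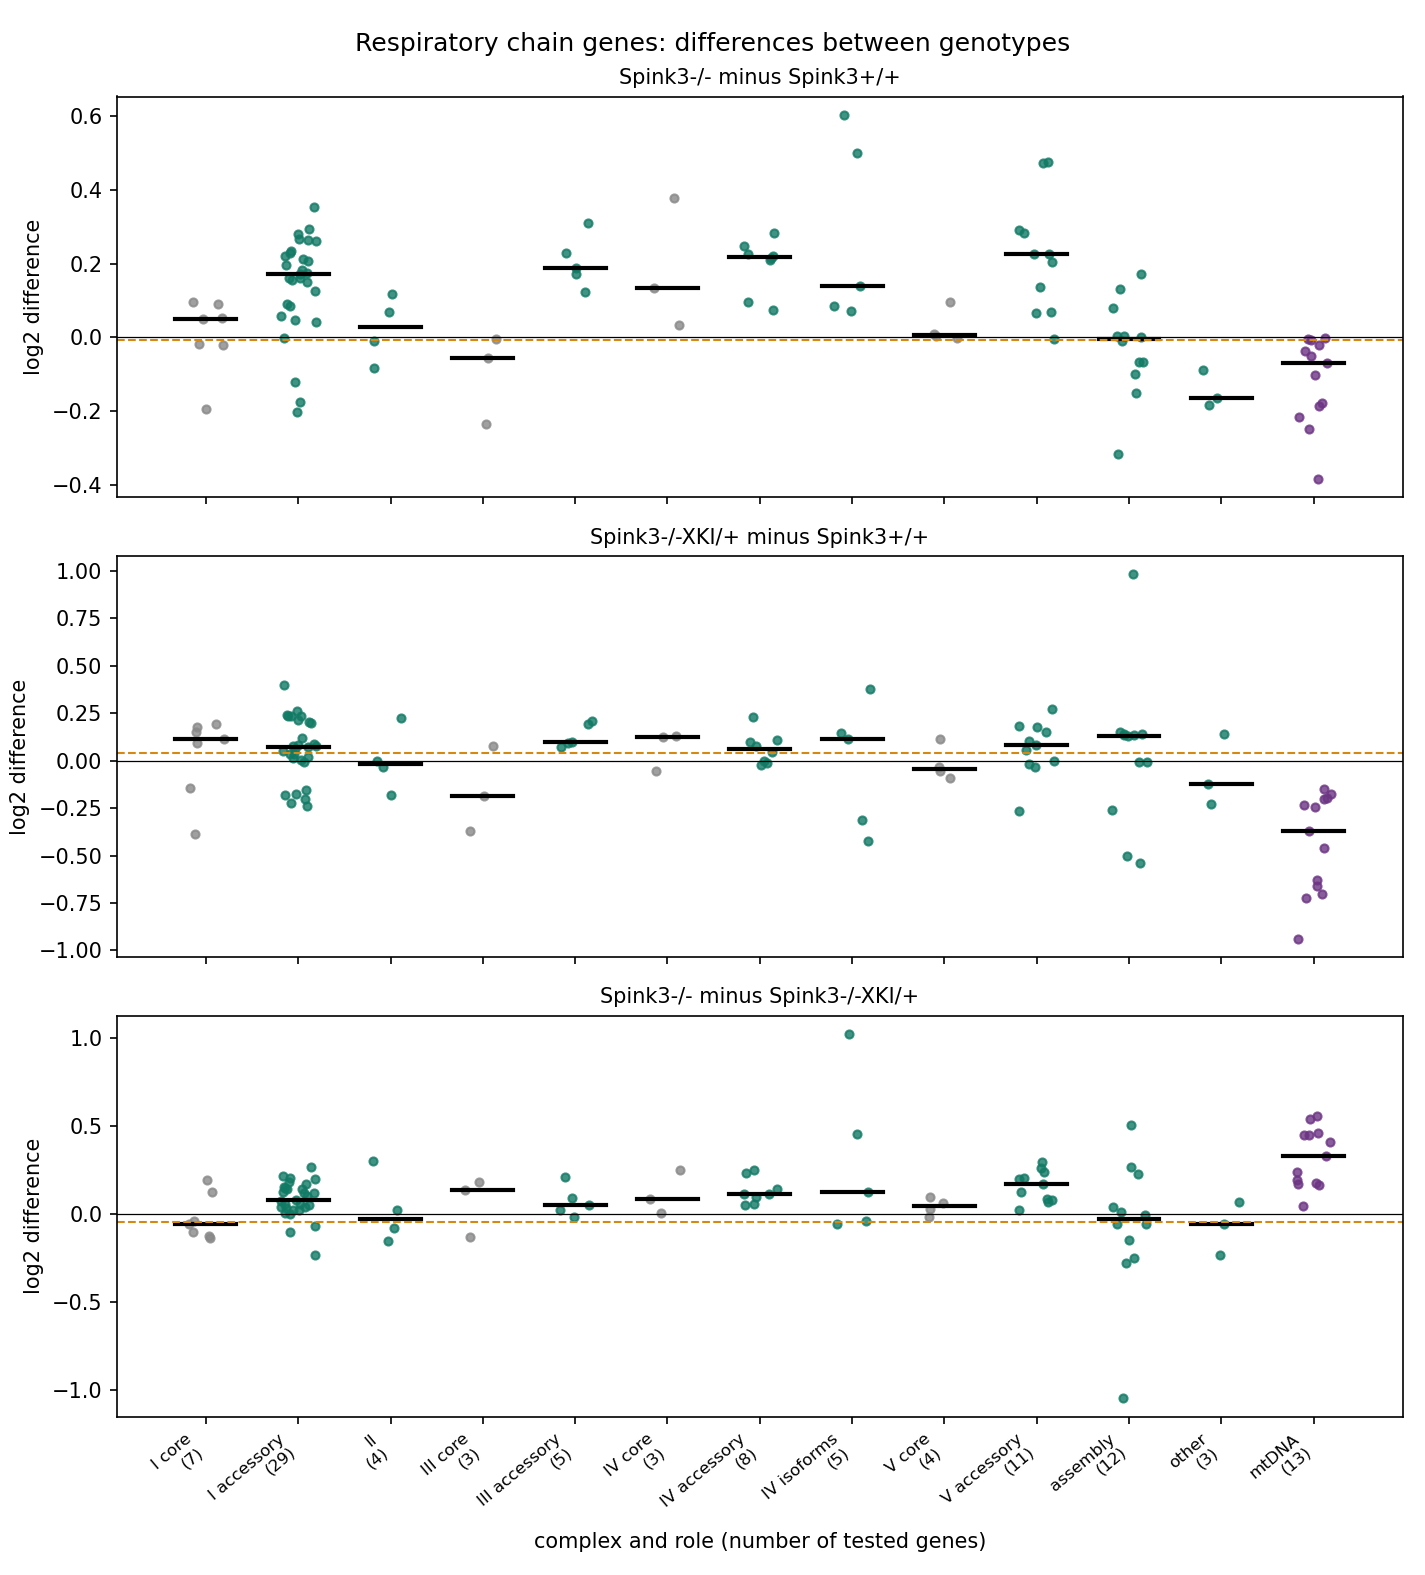
Log2 differences of the 94 tested respiratory chain genes and the 13 transcripts of mitochondrial DNA (mtDNA) by complex and role, 1 panel per comparison. Points are genes, black bars are medians, grey points are core subunits of complexes I, III, IV and V, purple points are mtDNA transcripts, green points are the rest (complex II included) and the dashed line is the median of all tested genes. In Spink3-/- against Spink3+/+ the accessory groups of complexes I, III, IV and V have medians from 0.17 to 0.23, and the core groups from -0.05 to 0.13.

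Mean brightness moved with this difference, and its part in it was not tested. Genes with a mean level of at least 4 were higher in Spink3-/- as a whole, with 1008 of 1575 higher and a median of 0.06. Of the chain, 55 genes lay in that range, 52 of them higher, with a median of 0.19. Both Spink3-/- arrays lay above both Spink3+/+ arrays for 365 of the 1575 bright genes and for 33 of the 55. Of the 39 dimmer chain genes 19 were higher and 20 lower. Within the bright range the 42 accessory subunits had a median of 0.22 with 41 higher, and the 12 core subunits a median of 0.07 with 11 higher. The core median thus lay near that of all bright genes and the accessory median above it.

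**Figure D2:**
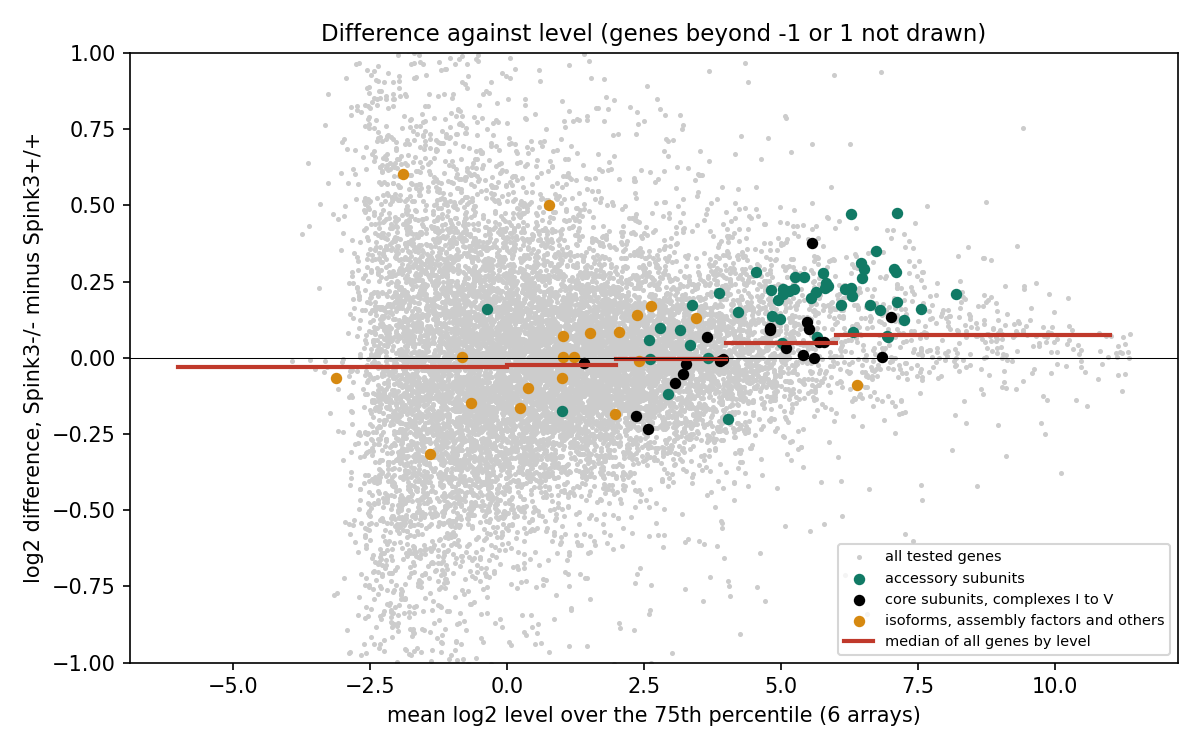
Log2 difference of Spink3-/- minus Spink3+/+ against the mean log2 level over 6 arrays, for all tested genes (light grey, those beyond -1 or 1 not drawn) and the chain by role. Red lines are medians of all genes by range of level, from -0.03 under a level of 0 to 0.08 at 6 and over. Most accessory subunits above a level of 4 lie above the red line.

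In Spink3-/- against Spink3+/+, complex V held the largest differences among the common subunits. Atp5e, the epsilon subunit of the rotor stalk, stood at 6.91 and 6.91 in Spink3+/+, 7.40 and 7.37 in Spink3-/-, and 7.05 and 7.12 in Spink3-/-XKI/+. All arrays of both deficient genotypes lay above Spink3+/+, and Spink3-/- was the highest. Its difference was 0.48 in Spink3-/- (SE 0.16, limma adjusted p = 0.966, with 2 arrays in each genotype) and 0.18 in Spink3-/-XKI/+. Its probe lies on chromosome 2, positions 174286656 to 174286715 of build mm9. Atp5k, the small membrane subunit e that helps ATP synthase form dimers, was read at chr5:108862263-108862322. It stood at 6.00 and 6.06, then 6.44 and 6.57, then 6.21 and 6.39 in the same order of genotypes, again without overlap. The difference was 0.47 in Spink3-/- (SE 0.17, limma adjusted p = 0.983) and 0.27 in Spink3-/-XKI/+, and its other 2 probes gave 0.39 and 0.46 in Spink3-/-. Those 2 probes are annotated to unplaced sequence, so Atp5k reads may include a copy of the gene. On their brightest probes Atp5h, Atp5j2 and Atp5l, all of the stalk and membrane part, were also above Spink3+/+ on every deficient array, by 0.23, 0.29 and 0.20 in Spink3-/- and by 0.15, 0.06 and 0.18 in Spink3-/-XKI/+. The probes standing for Atp5j2 and Atp5l are annotated to another chromosome than the gene, and their other probes on the gene's chromosome gave 0.18 for Atp5j2 and 0.05 to 0.20 for Atp5l in Spink3-/-. In Spink3-/-XKI/+ those of Atp5l gave 0.12 to 0.22. That of Atp5j2 gave -0.09, opposite to its brightest probe, with arrays at 4.91 and 4.67 against 4.80 and 4.95 in Spink3+/+.

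The larger subunits of the catalytic part stood close to Spink3+/+ in Spink3-/-. Atp5b, the catalytic beta subunit, stood at 6.77 and 6.98, then 6.85 and 6.90, then 6.78 and 6.79. The Spink3-/- values lay between the Spink3+/+ arrays. The differences in Spink3-/- were 0.00 for Atp5b, -0.00 for the alpha subunit Atp5a1, 0.01 for the gamma shaft Atp5c1 and 0.10 for the delta subunit Atp5d. In Spink3-/-XKI/+ they were -0.09, -0.03, -0.05 and 0.12. The lowest complex V value was that of the stator subunit Atp5f1 (Atp5pb in RefSeq), at -0.00 in Spink3-/- and -0.26 in Spink3-/-XKI/+, where its arrays stood at 2.70 and 2.17. Over 13 other settings on all arrays the latter difference ran from -0.31 to 0.17. Over complex V as a whole 13 of 15 were higher in Spink3-/- (median 0.14) and 8 of 15 in Spink3-/-XKI/+ (median 0.06). The first median was 0.07 without Spink3+/+ replicate 1, and the second was -0.05 without it.

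**Figure D3:**
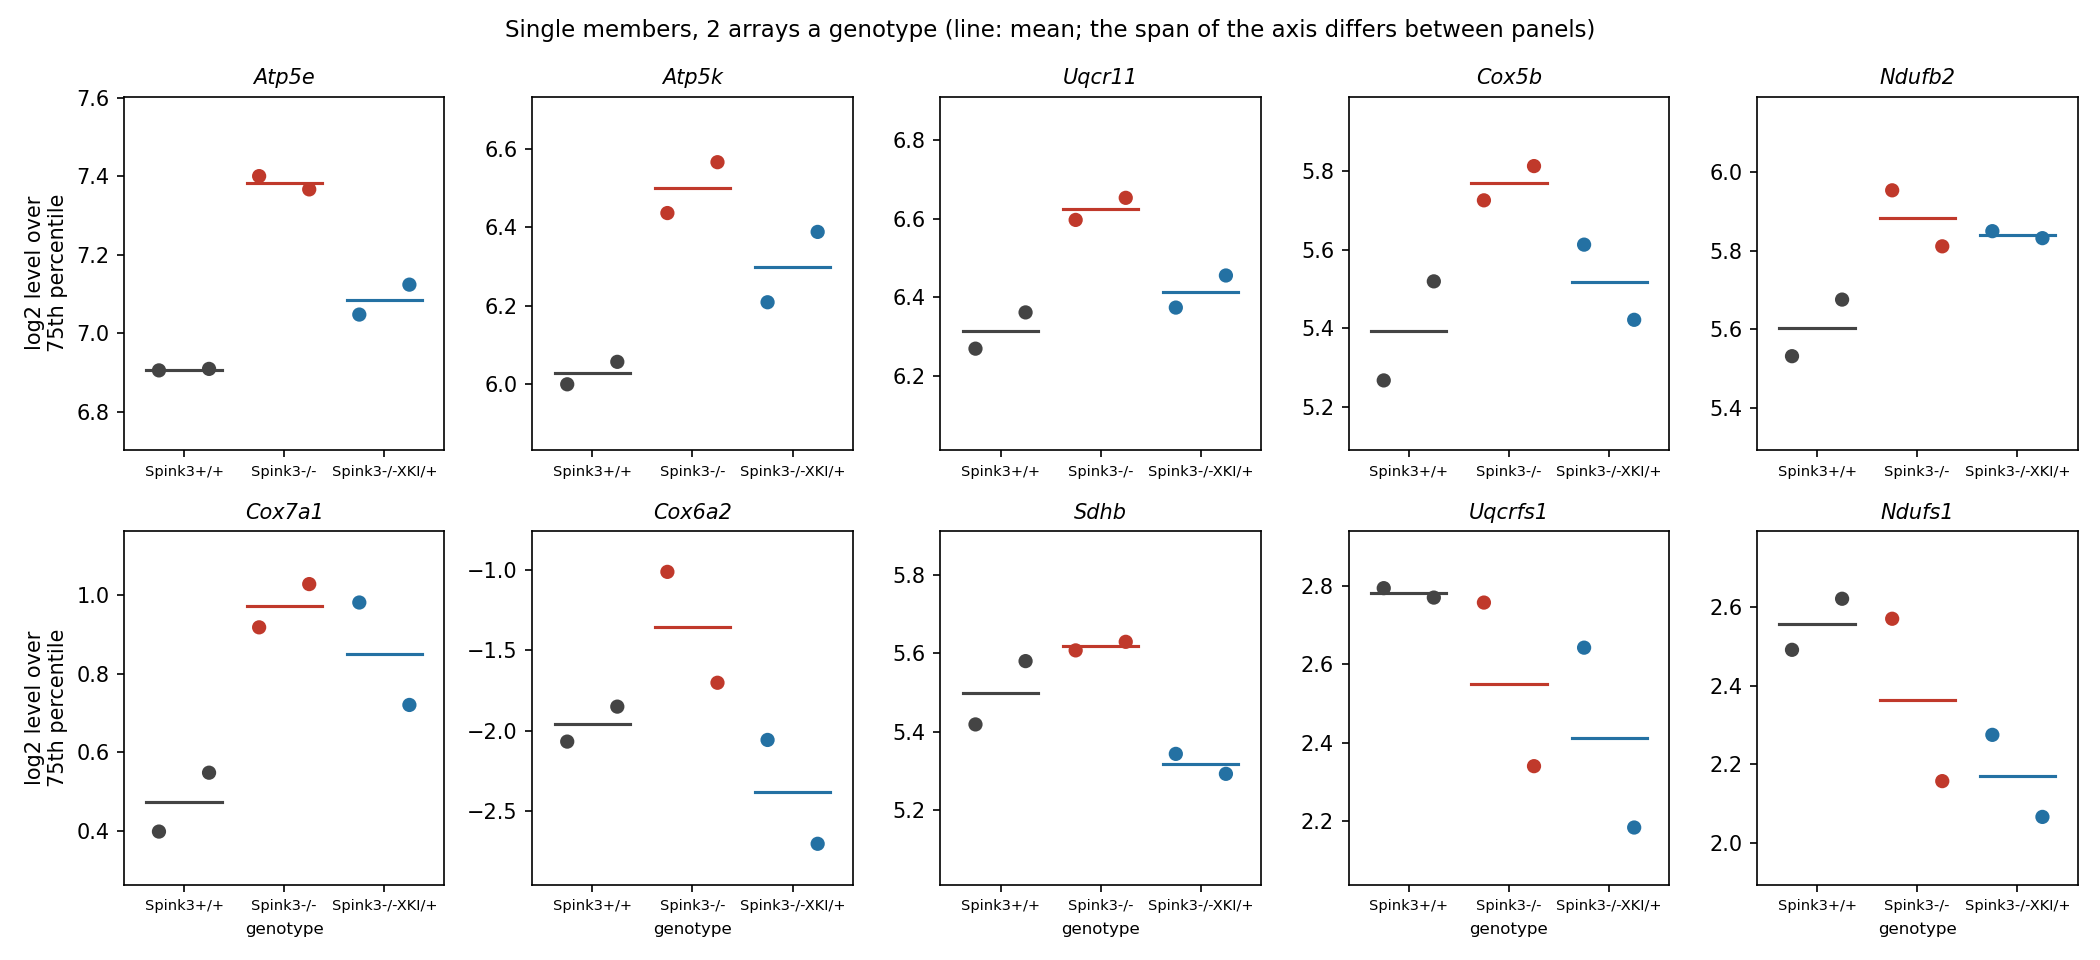
Log2 signal relative to the 75th percentile of its array of 10 respiratory chain genes, with 1 point per array and lines for genotype means; the vertical axis differs between panels. Atp5e, Atp5k and Uqcr11 show no overlap between any genotypes, while Uqcrfs1 and Ndufs1 are lowest in Spink3-/-XKI/+ replicate 2.

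Complex III split between its small subunits and its core. Uqcr11, the smallest subunit of the complex, stood at 6.27 and 6.36 in Spink3+/+, 6.60 and 6.65 in Spink3-/-, and 6.37 and 6.46 in Spink3-/-XKI/+. Its difference in Spink3-/- was 0.31 (SE 0.16, limma adjusted p = 0.989), with no overlap of any genotypes. Uqcr10 (0.23) and Uqcrh, the hinge protein between the complex and cytochrome c (0.17), were above Spink3+/+ on every deficient array too. Uqcrfs1, the Rieske iron-sulphur protein that takes electrons from ubiquinol, went the other way: it stood at 2.79 and 2.77, then 2.76 and 2.34, then 2.64 and 2.18. All 4 deficient arrays lay below Spink3+/+, by -0.23 in Spink3-/- (SE 0.23) and by -0.37 in Spink3-/-XKI/+. The row 2 arrays Spink3-/- replicate 2 and Spink3-/-XKI/+ replicate 2 were its lowest, and every row 2 array lay below every row 1 array. Spink3+/+ and Spink3-/-XKI/+ share no row. Over 13 other settings on all arrays the Uqcrfs1 difference ran from -0.25 to -0.02 in Spink3-/- and from -0.41 to 0.05 in Spink3-/-XKI/+. Uqcrc1 and Uqcrc2, the large core proteins, stood at -0.05 and -0.00 in Spink3-/- and 0.08 and -0.19 in Spink3-/-XKI/+. The median over all 8 subunits was 0.15 in Spink3-/-, and 0.03 without Spink3+/+ replicate 1.

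Promoters of the leading small subunits are shown because this family is known for binding sites of NRF1 and of ETS factors such as GABP. The windows hold the 250 bases before the start in RefSeq's table (GRCm38.p6), on the gene's strand, with GCGCATGC, 1 arm of the NRF1 palindrome, and CCGGAAG, the ETS core, in capitals on either strand.

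Atp5e: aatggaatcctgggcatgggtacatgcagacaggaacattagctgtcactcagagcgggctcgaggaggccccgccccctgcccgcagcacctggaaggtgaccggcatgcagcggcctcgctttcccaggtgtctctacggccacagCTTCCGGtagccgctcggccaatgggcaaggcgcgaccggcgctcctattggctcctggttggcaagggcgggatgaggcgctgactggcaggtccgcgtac

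Atp5k: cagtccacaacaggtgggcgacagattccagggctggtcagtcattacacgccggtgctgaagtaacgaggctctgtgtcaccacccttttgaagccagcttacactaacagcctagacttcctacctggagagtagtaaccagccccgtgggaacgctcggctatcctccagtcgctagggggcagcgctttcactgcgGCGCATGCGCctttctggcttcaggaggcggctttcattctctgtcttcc

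Uqcr11: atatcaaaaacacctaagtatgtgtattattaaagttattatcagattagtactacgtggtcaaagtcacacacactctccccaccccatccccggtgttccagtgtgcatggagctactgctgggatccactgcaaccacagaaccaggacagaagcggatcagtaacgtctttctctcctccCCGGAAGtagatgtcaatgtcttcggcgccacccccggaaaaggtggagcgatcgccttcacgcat

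Cox7a1: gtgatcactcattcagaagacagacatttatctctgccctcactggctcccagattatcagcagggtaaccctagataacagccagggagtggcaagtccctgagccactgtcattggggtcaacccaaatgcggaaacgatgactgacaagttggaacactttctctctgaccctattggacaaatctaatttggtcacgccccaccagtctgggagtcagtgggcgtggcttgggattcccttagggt

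These windows are chr2:174464102-174464351, chr5:108434400-108434649 and chr10:80406822-80407071 on the minus strand, and chr7:30183921-30184170 on the plus strand. Atp5e held 1 ETS core 102 bases before the start, Uqcr11 held 1 at 66 bases, and Atp5k held 2 overlapping NRF1 arms, 1 per strand, beginning 50 bases before it. The window of Cox7a1, a muscle isoform of complex IV, held neither. The table had windows for 81 of the 99 genes. The NRF1 arm was in 9 of the 81 (11.1%), against 2.56% of 27025 genes in the table, and the ETS core in 16 (19.8%), against 7.83%. The median difference in Spink3-/- was 0.07 for the 9 tested genes with the NRF1 arm and 0.13 for the 68 without it. It was 0.17 for the 15 tested with the ETS core and 0.09 for the 62 without it. A match describes these letters and is not a shown binding site.

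Complex IV was the complex in which every common subunit was higher in Spink3-/-. All 11 were above Spink3+/+, with a median of 0.22. Of them 9 were without overlap, where all genes gave 16.0% and genes with a mean level of at least 4 gave 365 of 1575. Cox5b, a zinc-binding subunit, stood at 5.27 and 5.52 in Spink3+/+, 5.73 and 5.81 in Spink3-/-, and 5.61 and 5.42 in Spink3-/-XKI/+. Its Spink3-/- arrays were the highest, by 0.38 (SE 0.18, limma adjusted p = 0.989), and its Spink3-/-XKI/+ arrays lay on either side of Spink3+/+ replicate 2. Ndufa4, named as a complex I subunit and now known to sit in complex IV, differed by 0.28 in Spink3-/- and 0.23 in Spink3-/-XKI/+, with no overlap of either with Spink3+/+. Cox7a2 (0.22) and the regulatory subunit Cox4i1 (0.13) also lay above Spink3+/+ on every deficient array. Cox5a was the lowest at 0.03. In Spink3-/-XKI/+ 7 of the 11 were higher, with a median of 0.08. That median was -0.01 without Spink3+/+ replicate 1, -0.03 without Spink3-/-XKI/+ replicate 1 and 0.18 without Spink3-/-XKI/+ replicate 2. The Spink3-/- median was 0.11 without Spink3-/- replicate 1 and 0.33 without replicate 2.

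Isoforms of complex IV restricted to certain tissues varied more. Cox7a1, the isoform of heart, skeletal muscle and brown fat, stood at 0.40 and 0.55 in Spink3+/+, 0.92 and 1.03 in Spink3-/-, and 0.98 and 0.72 in Spink3-/-XKI/+. All deficient arrays were above Spink3+/+, by 0.50 in Spink3-/- (SE 0.18, limma adjusted p = 0.983) and 0.38 in Spink3-/-XKI/+ (limma adjusted p = 0.702). Cox6a2, another heart and muscle isoform, stood at -2.07 and -1.85, then -1.01 and -1.70, then -2.06 and -2.70. Spink3-/- was highest, and only 1 array each of Spink3+/+ and Spink3-/-XKI/+ was well above background. The Spink3-/- minus Spink3-/-XKI/+ difference of 1.02 (SE 0.32, limma adjusted p = 0.562) thus rests partly on dim spots. Striated muscle markers, 9 of 20 listed being tested, had medians about their own means of -0.65 and -0.10 in Spink3+/+, 0.02 and -0.17 in Spink3-/-, and -0.01 and 1.23 in Spink3-/-XKI/+. The array with the highest muscle markers, Spink3-/-XKI/+ replicate 2, had the lowest Cox6a2 and the lower Cox7a1 of its genotype. The part of these markers in the isoforms' differences was not tested. Brown fat markers, 5 of 10 tested, had medians from -0.20 to 0.16 over the arrays.

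The remaining isoforms had smaller differences or were dim. Cox4i2, which replaces Cox4i1 under low oxygen and in lung, stood at 0.07 in Spink3-/- and 0.11 in Spink3-/-XKI/+, and the testis isoform Cox6b2 at 0.09 and 0.15. Ndufa4l2, the hypoxia-induced relative of Ndufa4, stood at 0.14 and -0.31. Its Spink3-/-XKI/+ arrays at 2.11 and 2.11 were below Spink3-/- at 2.59 and 2.54 and inside the Spink3+/+ range of 2.06 to 2.79. Cox8b, the muscle isoform, was well above background on 1 array alone, Spink3-/-XKI/+ replicate 1, at -1.01 where the other 5 lay between -4.70 and -3.70. Cox8c, a testis isoform, was above it only on Spink3+/+ replicate 2.

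Complex I, the NADH dehydrogenase, had 29 of 36 subunits higher in Spink3-/- and a median of 0.15. On single arrays the median of its genes about their own means was -0.14 and -0.02 in Spink3+/+ and 0.06 and 0.07 in Spink3-/-. Over 13 other settings on all arrays the complex I median ran from 0.08 to 0.27, with 25 to 32 higher. Its 29 accessory subunits had a median of 0.17 with 25 higher, and its 7 core subunits 0.05 with 4 higher. Ndufb2, an accessory subunit of the membrane arm, stood at 5.53 and 5.68 in Spink3+/+, 5.95 and 5.81 in Spink3-/-, and 5.85 and 5.83 in Spink3-/-XKI/+. Neither deficient genotype overlapped Spink3+/+, with differences of 0.28 (SE 0.16, limma adjusted p = 0.989) and 0.24. Ndufa3 (0.29 and 0.23), Ndufa5 (0.23 and 0.20), Ndufb9 (0.26 and 0.12), Ndufs4 (0.21 and 0.22), Ndufb10 (0.17 and 0.24), Ndufa2 (0.16 and 0.26) and the acyl carrier Ndufab1 (0.16 and 0.40) likewise had all deficient arrays above Spink3+/+. Ndufab1 was the complex I subunit with the highest difference in Spink3-/-XKI/+, and Ndufs4, which completes the NADH-binding arm, is the one whose loss gives a mouse model of Leigh syndrome.

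Among the 7 core subunits of complex I, 1 had all deficient arrays on 1 side, a share near that of all genes (8.14% higher and 6.18% lower). Ndufv2, which holds an iron-sulphur cluster beside the NADH site, stood at 4.67 and 4.75, then 4.83 and 4.77, then 4.85 and 4.96, a difference of 0.09 and 0.19. The NADH-binding Ndufv1 differed by 0.05 and 0.18, Ndufs3 by 0.10 and 0.15, Ndufs7 by 0.05 and 0.09, and Ndufs8 by -0.02 and -0.14. Ndufs1, the largest subunit with 3 iron-sulphur clusters, stood at 2.49 and 2.62, then 2.57 and 2.16, then 2.28 and 2.07. It was lowest in complex I in Spink3-/-XKI/+, by -0.39 (SE 0.21, limma adjusted p = 0.731), and its Spink3-/- arrays overlapped Spink3+/+ at -0.19. Every row 2 array of Ndufs1 lay below every row 1 array. Over 13 other settings on all arrays its Spink3-/-XKI/+ difference ran from -0.43 to 0.03. Ndufa10 was below Spink3+/+ on every deficient array, by -0.18 in both. Ndufa6 was lowest in Spink3-/-, at -0.20, with Spink3-/-XKI/+ at -0.24.

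Ndufv3, a small subunit next to the NADH site, had the highest complex I value in Spink3-/- on its brightest probe, while its other probes pointed down. The gene is known to give a short and a long protein by skipping or keeping 1 large exon. The first 30 bases of each 60-base probe are shown in order along chromosome 17 (mm9), since the direction depends on which is read.

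Ndufv3 probe 1: aagaaaagctattgccactccctccgtcct

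Ndufv3 probe 2: gtgccagaaggaggctcccaggtccaggag

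Ndufv3 probe 3: ggtagaccccgatgttggttcccatgaatc

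Probe 1 lies at chr17:31663758-31663817, probe 2 at chr17:31665148-31665207 and probe 3 at chr17:31668209-31668268. Which exon each meets was not analysed here. Probe 3 stood at 6.47 and 6.62 in Spink3+/+, 6.81 and 6.98 in Spink3-/-, and 6.76 and 6.79 in Spink3-/-XKI/+, so that both deficient genotypes were higher, by 0.35 and 0.23. Probe 2 stood at 1.09 and 0.86, then 0.40 and 0.88, then 0.77 and 0.90, a difference of -0.33 and -0.14 with overlap. Probe 1 stood at 0.33 and 0.41, then -0.03 and 0.36, then 0.33 and 0.11, a difference of -0.20 and -0.15. The low values of probes 1 and 2 in Spink3-/- came from replicate 1. Levels of different probes cannot be set against each other, and the mean of the 3 probes gave -0.06 in Spink3-/-. Of 31 chain genes with several tested probes, 8 had probes of opposite sign in Spink3-/- and 13 in Spink3-/-XKI/+. Among them were Atp5g1 (0.28 and -0.12 in Spink3-/-), Ndufa3 (-0.11 to 0.29) and Ndufb11 (-0.61 to 0.09). The Ndufb11 probe at -0.61 was well above background on 0 Spink3-/- arrays and passed the filter only through the other genotypes, where it was higher. The Ndufa3 probe at -0.11 was dim, with levels from -2.53 to -1.48.

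**Figure D4:**
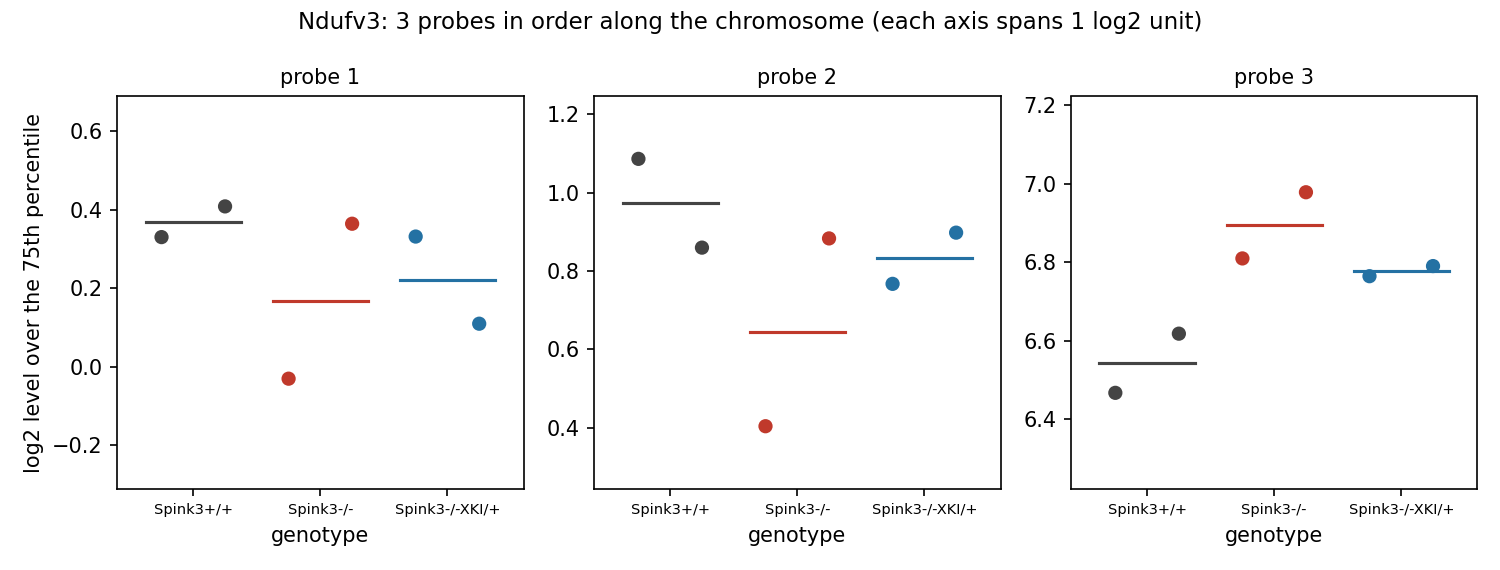
Log2 signal relative to the 75th percentile of its array for the 3 Ndufv3 probes in order along the chromosome, with 1 point per array and lines for genotype means. Probe 3 is higher in both deficient genotypes, by 0.35 and 0.23, and probes 1 and 2 are lower in Spink3-/-, by -0.20 and -0.33, with overlapping arrays.

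Complex II, succinate dehydrogenase, which also serves the tricarboxylic acid cycle, showed no common direction. Its 4 subunits had a median of 0.03 in Spink3-/- and -0.02 in Spink3-/-XKI/+, with 2 and 1 higher. Sdhb, the iron-sulphur subunit, stood at 5.42 and 5.58 in Spink3+/+, 5.61 and 5.63 in Spink3-/-, and 5.34 and 5.29 in Spink3-/-XKI/+. It was above Spink3+/+ in 1 deficient genotype and below it in the other, by 0.12 and -0.18, and the deficient genotypes differed by 0.30 (SE 0.16, limma adjusted p = 0.734). It was 1 of 94 chain genes (1.06%) with this pattern, against 2.91% of all genes. Its second, dimmer probe gave -0.11 and -0.44. The flavoprotein Sdha differed by -0.08 and -0.00, the membrane anchors Sdhc by 0.07 and 0.22, and Sdhd by -0.01 and -0.03.

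Assembly factors, which build the complexes but are not part of them, had 6 of 12 higher in Spink3-/- (median -0.00, and -0.15 without Spink3+/+ replicate 1) and 7 of 12 in Spink3-/-XKI/+ (median 0.13, and -0.00 without Spink3+/+ replicate 1). On their brightest probes Cox16 and Cox19 lay above Spink3+/+ on every deficient array. The differences were 0.13 and 0.17 in Spink3-/- and 0.14 and 0.13 in Spink3-/-XKI/+. The other tested probe of Cox16 gave 0.19 in Spink3-/- and -0.21 in Spink3-/-XKI/+, with overlapping arrays in both. Cox18, which inserts a mitochondrially made subunit into the membrane, had the lowest values, -0.31 and -0.54, with overlapping arrays. Ndufaf4, a complex I factor, stood at 1.16 and 1.61 in Spink3+/+, 1.58 and 1.19 in Spink3-/-, and 0.90 and 0.86 in Spink3-/-XKI/+, where it was lower by -0.50 (SE 0.23, limma adjusted p = 0.699). Cox17, the copper carrier for complex IV, stood at -3.92 and -2.94, then -3.60 and -3.40, then -2.56 and -2.33. It was well above background on the Spink3-/-XKI/+ arrays alone, so its difference of 0.98 (limma adjusted p = 0.581) has no measured lower side. Cox4nb, in the list by name only, was below Spink3+/+ on every deficient array, by -0.16 and -0.23.

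In Spink3-/-XKI/+ the chain as a whole lay closer to Spink3+/+. Of the 94 genes 60 were higher and 34 lower, with a median of 0.08 against 0.04 for all genes, but quantile normalization gave 46 higher and 48 lower with a median of -0.00. Without Spink3+/+ replicate 1 the median was -0.00 as well, without Spink3+/+ replicate 2 it was 0.13, and without Spink3-/-XKI/+ replicate 1 it was 0.02. Both arrays lay above both Spink3+/+ arrays for 30 of the 94 and below for 8, where all genes gave 25.9% and 16.2%. The share above was thus near the background. The accessory subunits had 39 of 53 higher with a median of 0.08, and the core 10 of 21 with a median of -0.00. The accessory median was 0.01 without Spink3+/+ replicate 1 or without Spink3-/-XKI/+ replicate 1, with 27 and 29 of 53 higher. In the same comparison 5 of 5 tested erythroid genes (9 listed) were lower (median -0.99), 9 of 9 striated muscle genes were higher (median 1.08), and 8 of 13 liver and 10 of 19 acinar genes were higher (medians 0.12 and 0.02). Their part in the chain's values was not tested. All 4 deficient arrays lay above Spink3+/+ for 24 of the 94 and below for 3, against 8.14% and 6.18% of all genes. Of the 24, 19 were accessory subunits, 2 core subunits, 1 a restricted isoform and 2 assembly factors.

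Spink3-/- stood above Spink3-/-XKI/+ for 69 of the 94, with a median of 0.07 where all genes had -0.04. Both arrays were above for 22 and below for 5, against 13.1% and 21.6% of all genes. Here 12 of 13 liver genes were higher (median 1.53), 16 of 19 acinar genes lower (median -0.07), 9 of 9 striated muscle genes lower (median -0.54) and 5 of 5 erythroid genes higher (median 0.50), and their part was not tested. Accessory subunits were higher in 48 of 53 (median 0.10) and core subunits in 12 of 21 (median 0.02). Spike-in scaling gave 80 of 94 higher and a median of 0.14 with all genes at 0.02. Without Spink3-/-XKI/+ replicate 2 the chain's median was 0.03, with 55 of the same 94 higher, and the accessory median was 0.04. Without Spink3-/-XKI/+ replicate 1 the chain's median was 0.12, and without Spink3-/- replicate 1 it was 0.05.

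Within a slide row the direction held for Spink3-/- against either genotype. In row 1, Spink3-/- replicate 1 was above the mean of Spink3+/+ for 70 of 94 chain genes (median 0.11) and for 50 of 53 accessory subunits (median 0.21), with all genes at -0.03. In row 2, Spink3-/- replicate 2 was above the mean of Spink3-/-XKI/+ for 64 of 94 (median 0.05) and 41 of 53 (median 0.08), with all genes at -0.02. Core subunits were higher in 10 of 21 (median -0.01) in row 1 and in 12 of 21 (median 0.05) in row 2. In row 2 the accessory and core medians were thus close. Each of these values rests on a single Spink3-/- array. For Spink3-/-XKI/+ against Spink3+/+, row and genotype can be separated only through the Spink3-/- arrays.

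The 13 protein-coding transcripts of mitochondrial DNA, whose products form the catalytic centres of complexes I, III, IV and V, fall outside the naming rule and followed another pattern. In Spink3-/-XKI/+ all 13 were below Spink3+/+, 12 without overlap where all genes gave 16.2%, with a median of -0.37, while none was called by limma (ND2 had the smallest adjusted p, 0.617). ND4, a proton-pumping subunit of complex I, stood at 5.13 and 5.05 in Spink3+/+, 5.32 and 4.09 in Spink3-/-, and 4.63 and 3.67 in Spink3-/-XKI/+. COX1, the catalytic subunit of complex IV, stood at 8.72 and 8.63, then 8.83 and 8.09, then 8.36 and 7.66. Both were higher on every row 1 array than on every row 2 array. Only Spink3-/- has arrays in both rows, with 1 in each. COX2 spread least, from 9.90 to 10.13. The median of the 13 about their own means was 0.19, 0.15 and 0.30 on the 3 row 1 arrays and -0.19, -0.13 and -0.29 on the 3 row 2 arrays. With slide row as a block the 13 gave 7 higher and 6 lower in Spink3-/-XKI/+, with a median of 0.03. The row effect in that fit comes from the Spink3-/- arrays alone, since no other genotype lies in both rows. In Spink3-/- all 13 were lower by a median of -0.07, but 10 were higher with the row block (median 0.16) and 8 with spike-in scaling (median 0.04). The row block value in Spink3-/- rests on Spink3-/- replicate 1 alone.

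**Figure D5:**
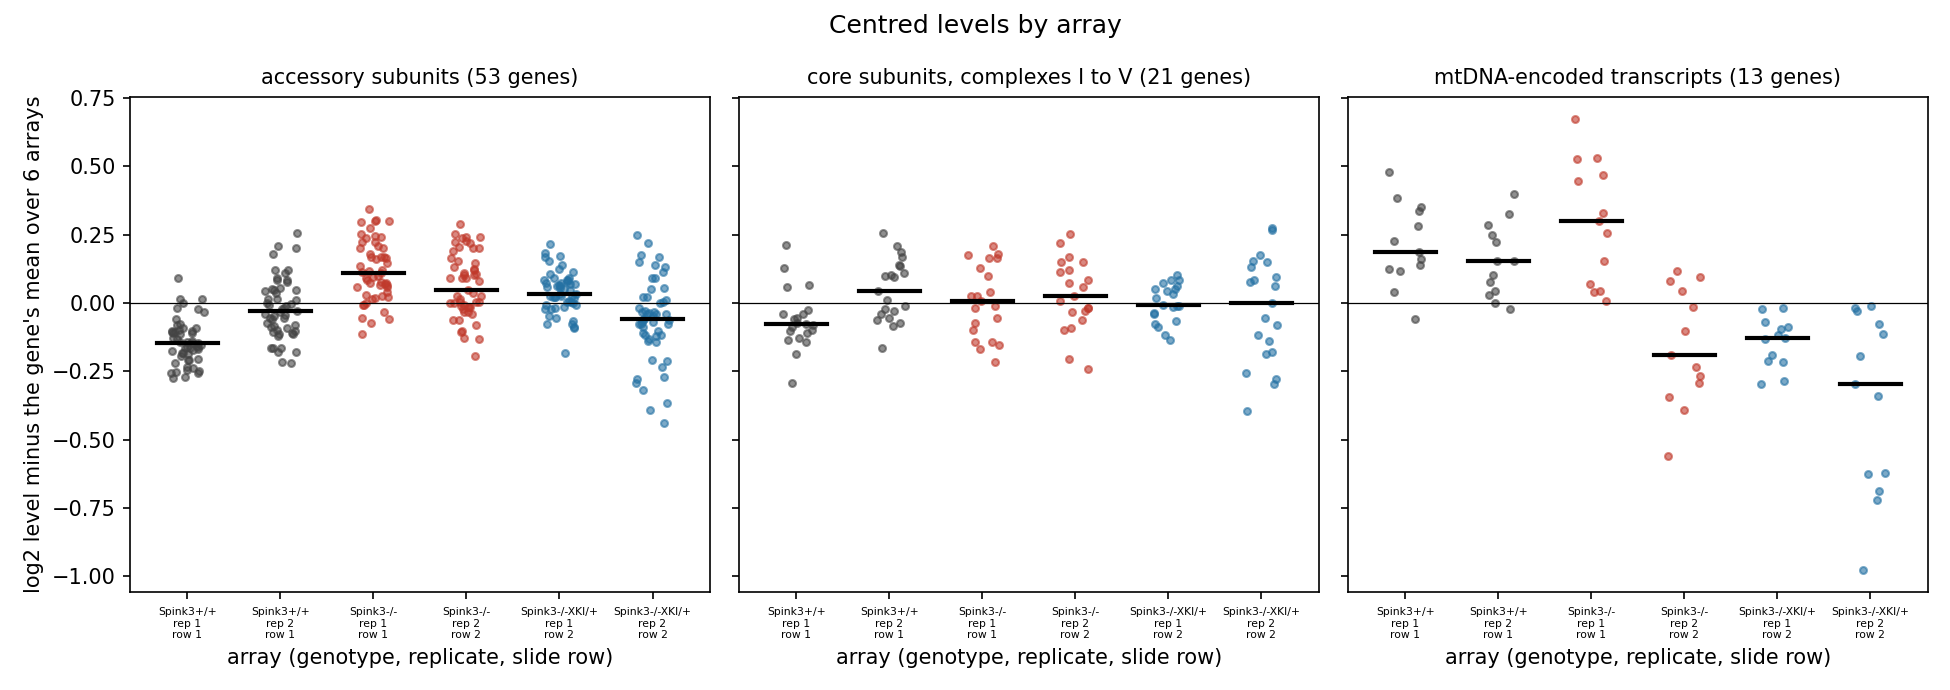
Log2 level of each gene minus its mean over 6 arrays, for accessory subunits, core subunits and mtDNA-encoded transcripts, with 1 column per array and black bars for medians. Accessory medians are 0.11 and 0.05 in Spink3-/- against -0.15 and -0.03 in Spink3+/+, core medians lie between -0.08 and 0.05, and mtDNA medians are above 0 on all row 1 arrays and below 0 on all row 2 arrays.

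Genes that regulate or feed the chain had 0 calls by limma in every list and comparison. Of 13 tested regulators of mitochondrial biogenesis 7 were higher in Spink3-/- (median 0.00) and 6 in Spink3-/-XKI/+ (median -0.01). Tfam, which packages and transcribes mitochondrial DNA, stood at -0.37 and -0.20 in Spink3+/+, -0.45 and -1.11 in Spink3-/-, and -0.52 and -1.44 in Spink3-/-XKI/+. All deficient arrays were below Spink3+/+, by -0.50 and -0.70 (SE 0.36), and replicate 2 of each was the lowest. Every row 2 array of Tfam also lay below every row 1 array, and Spink3+/+ and Spink3-/-XKI/+ share no row. Gabpa, the ETS factor named above, differed by -0.61 in Spink3-/- and -0.35 in Spink3-/-XKI/+, with 1 Spink3-/- array not well above background. Its partner Gabpb1 differed by -0.06 and -0.52, and the coactivator Ppargc1a by 0.40 and -0.23.

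Electron carriers and chain genes outside the naming rule were split, with 7 of 13 higher in Spink3-/- and 5 of 13 in Spink3-/-XKI/+. Etfdh, which feeds electrons from fat oxidation into ubiquinone, differed by -0.59 in Spink3-/-, and its partner Etfb by 0.42 in Spink3-/-XKI/+. The ATP synthase inhibitor Atpif1 differed by 0.15 and 0.26. Assembly factors under other names had 8 of 18 higher in Spink3-/- and 11 of 18 in Spink3-/-XKI/+, with the complex III factor Uqcc2 at 0.43 and 0.14 and the hypoxia-induced Higd1a at 0.33 and -0.34. Tricarboxylic acid cycle genes had 7 of 16 and 6 of 16 higher, with the dehydrogenase subunit Dld at -0.28 and -0.57. Mitochondrial import genes had 13 of 20 higher in Spink3-/- (median 0.08) and 6 of 20 in Spink3-/-XKI/+ (median -0.14), with the small translocase subunit Tomm7 at 0.39 and 0.09. Mitophagy genes had 4 of 10 and 6 of 10 higher, with the mitophagy receptor Bnip3 at 0.26 and -0.61 and the kinase Pink1 at -0.34 and 0.18.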

How the data were processed

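Per the file headers and the submitters' processing notes, the deposited intensity values are spot signals as processed by Agilent's Feature Extraction software, version 10.7.3.1: background-subtracted, detrended and linear, not scaled between arrays, annotated on mm9. Deposited flags for spots well above background, saturated or outlying are 0 or 1. The deposited series table held the same intensity values (column medians 15.2 to 19.9), so its fit repeats the main one.

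From these, log2 of the signal minus the array's 75th percentile over non-control spots was computed, outlier spots were dropped, and spots of a probe averaged. The filter kept 24818 of 55681 probes (44.6%). A gene was represented by its brightest probe. Differences between genotypes were fitted on all 6 arrays with the limma package, version 3.58.1, under R 4.3.3 (3 residual degrees of freedom, two-sided), adjusted over all genes and called under 0.05. An exact permutation test of 2 against 2 arrays cannot go below 0.333. The number of arrays limits the precision. Where a group is left with 1 array, it is assumed to vary like the others. The fit was tested on simulated data. Figures used matplotlib 3.10.9 in Python 3.11.15.

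Names came from the files for the chain and otherwise from RefSeq. Chain genes, lists, core subunits and tests were chosen with earlier results of these data known. Named genes are the highest and lowest per complex and comparison, core subunits, restricted isoforms, genes with all deficient arrays on 1 side, and the largest differences per outside list. The probe comparisons were chosen after their values were seen. The values of 1 core subunit are not reported here.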

Additional observations from a re-analysis of the deposited data

Results flagged for a closer look

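Sdhb was singled out because the deficient genotypes moved in opposite directions from Spink3+/+, with both Spink3-/- arrays above and both Spink3-/-XKI/+ arrays below both Spink3+/+ arrays. The difference of Spink3-/- minus Spink3-/-XKI/+ was 0.30 on the log2 scale (SE 0.16, limma adjusted p = 0.734), so it did not pass. Groups of 2 arrays allow no search for outlying samples.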

How the results depend on the processing

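Alternatives covered background correction, scaling, filter, probe rule, test, blocks and arrays left out; those that keep the genes tested while an array is left out were chosen after seeing the data. The 13 settings on all arrays called 0 chain genes in every comparison. Spike-in scaling moved the chain's median to 0.22 in Spink3-/- against Spink3+/+ and to 0.14 in Spink3-/- against Spink3-/-XKI/+, where the median of all genes moved too. Quantile normalization gave -0.0025 for Spink3-/-XKI/+ against Spink3+/+; the cause was not tested. With an array left out, the medians ran from 0.0531 to 0.177 in Spink3-/- against Spink3+/+ (lowest without Spink3+/+ replicate 1, highest without Spink3+/+ replicate 2), from -0.0012 to 0.13 in Spink3-/-XKI/+ against Spink3+/+ (lowest without Spink3+/+ replicate 1), and from 0.0240 to 0.122 in Spink3-/- against Spink3-/-XKI/+ (lowest without Spink3-/-XKI/+ replicate 2, highest without replicate 1). Calls ran from 0 to 1 in Spink3-/-XKI/+ against Spink3+/+: without Spink3+/+ replicate 1, Cox8c was called at -3.01 (limma adjusted p = 0.0395), a gene that does not pass the filter with all arrays. Over the same genes this array's absence gave 0 calls.

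The labels share replicate numbers, and the deviations of same-numbered arrays had low correlations (-0.06, 0.03 and 0.20). Before scaling, the column medians did split by number. They were 18.8, 19.9 and 18.5 for replicate 1 and 15.5, 15.2 and 15.8 for replicate 2 of Spink3+/+, Spink3-/- and Spink3-/-XKI/+. With a replicate block the medians were 0.11, 0.08 and 0.07, with 0 calls. The slide row block gave 0.11, 0.05 and 0.05. Against Spink3+/+ it amounts to leaving out Spink3-/- replicate 2, and against Spink3-/-XKI/+ to leaving out Spink3-/- replicate 1. Its medians for Spink3-/- thus repeat those given within a slide row. Dim spots limit Cox17 and Cox6a2.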

Other observations

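Glycolysis genes, the other route to ATP, had 14 of 17 higher in Spink3-/- (median 0.19, from 0.11 to 0.44 with an array left out, highest without Spink3+/+ replicate 2) and 8 of 17 in Spink3-/-XKI/+ (median -0.05), with 0 called by limma. Ldha, which turns pyruvate into lactate, stood at 6.01 and 6.70 in Spink3+/+, 6.80 and 6.76 in Spink3-/-, and 5.95 and 6.03 in Spink3-/-XKI/+. Slc2a1, the main glucose transporter of many cells, was 0.65 higher in Spink3-/- (SE 0.19, limma adjusted p = 0.889), without overlap. Hk2, the inducible hexokinase, stood in Spink3-/-XKI/+ at a difference of -1.18 from Spink3+/+ (limma adjusted p = 0.596). Proteasome subunits, another large set of coordinately made nuclear genes, had 14 of 31 higher in Spink3-/-, with a median of -0.01.

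Sdhaf3, a complex II assembly factor listed on the array under the name Acn9, stood at -1.60 and -1.51 on the Spink3-/- arrays and between -4.86 and -3.46 on the other 4, where it was not well above background. Sdhaf3 passed the filter only through Spink3-/-, the genotype where it is high, and was called by limma in neither comparison. A bound from the Spink3-/- mean, with no allowance for the spread of its 2 arrays, was 1.84-fold over Spink3+/+ (limma adjusted p = 0.540). Over Spink3-/-XKI/+ it was 2.38-fold (fitted log2 2.75). This bound sets the Spink3-/- mean against the dimmest signal that counted as well above background, or the dim probe's own signal where higher.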
